A study of Mus musculus with 6 samples.

Results

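Notch signalling was described here through 10 genes of day 4 mouse heart: the receptor genes Notch1, Notch2, Notch3 and Notch4, the ligand genes Jag1, Jag2 and Dll4, and the target genes Hey1, Hey2 and Heyl. They were taken by gene symbol from a deposited table of 54532 genes, and each symbol had 1 row. All 10 passed the filter on low values, at least 1 FPKM in at least 3 samples, as did 12431 genes in all. FPKM here is a value per kilobase of gene length and per a library scale set by the authors. The hearts came from wild-type (WT) ICR mice, an outbred stock, with day 4 read from the sample titles. In the control group (n = 3) the pregnant mothers had received citric acid into the peritoneum, and in the STZ group (n = 3) STZ, read here as streptozotocin, a beta cell toxin used to model diabetes in pregnancy. Nothing in the labels says whether the 3 samples of a group came from separate litters, whether hearts were pooled, or which part of the heart was taken, so p-values measure the spread between these samples only.

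Notch receptors are membrane proteins that are cleaved when a ligand on a neighbouring cell binds them. The freed intracellular part enters the nucleus, joins the DNA-binding protein RBPJ and switches on targets such as the Hey genes, which encode repressors of the basic helix-loop-helix class. In the heart the pathway is known for patterning the endocardium, valves, trabeculae and coronary vessels. Notch1, Notch4 and Dll4 are textbook genes of endothelium, Notch3 and Heyl of the mural cells that wrap vessels, and Hey2 of ventricular muscle and arterial endothelium.

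Control 2 stood apart from the other 5 libraries in genes other than the 10 members. Myl7, the atrial myosin light chain, was at 3930 FPKM in control 2 and between 2.92 and 18.3 FPKM in the others. The summed FPKM of 6 atrial markers was 6261 in control 2 against 44.8 to 128 in the others. Its summed level of 10 cardiomyocyte markers was 0.480 times the mean of controls 1 and 3, of 11 endothelial markers 0.660 times and of 10 mural markers 0.656 times, while 8 fibroblast markers were at 1.77 times and 6 endocardial and valve markers at 3.01 times. The summed level of 5 neural and Schwann cell markers was 39.3 FPKM in control 2 and at most 1.39 FPKM elsewhere. None of these markers was at 0 in every library. In bulk RNA, fewer cells of a type and less RNA per cell cannot be told apart. Recovered reads numbered 16707268 to 18082599 per library, and the authors' scale was 1.21 times the reads in control 2 against 0.985 to 1.03 times in the others. The same share of reads thus gives a lower FPKM in control 2 than elsewhere. Control 3 had 22184 Xist reads and no reads of 4 Y-linked genes. The other 5 libraries had 0 to 18 Xist reads and 3856 to 4533 reads of the Y-linked genes. The pattern of control 3 thus had no counterpart in the STZ group. Because control 2 stood apart in the markers above, the differences of the 10 genes are also given without it. Control 3 was left out in another of the alternative fits, some values of which are given below.

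None of the 10 genes passed the test between groups (limma, BH-adjusted p between 0.922 and 0.975), against 0.0241% of all genes tested. None reached an unadjusted p under 0.05 either, where 2.59% of all genes did, and without control 2 again none did, against 3.85%. The values of the 2 groups did not overlap for 3 members, Notch4 being higher in STZ hearts and Jag1 and Heyl lower. Over all genes tested 8.54% did not overlap, 4.92% with STZ hearts higher and 3.62% with STZ hearts lower. Without control 2 the count was 4 members, the same 3 and Notch3 as lower, against 17.7% of genes. The log2 difference, STZ minus control, was positive for 6 and negative for 4 members with a median of 0.09, where the median over all genes was 0.03. Without control 2 it was positive for 4 and negative for 6, with a median of -0.04.

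**Figure D1:**
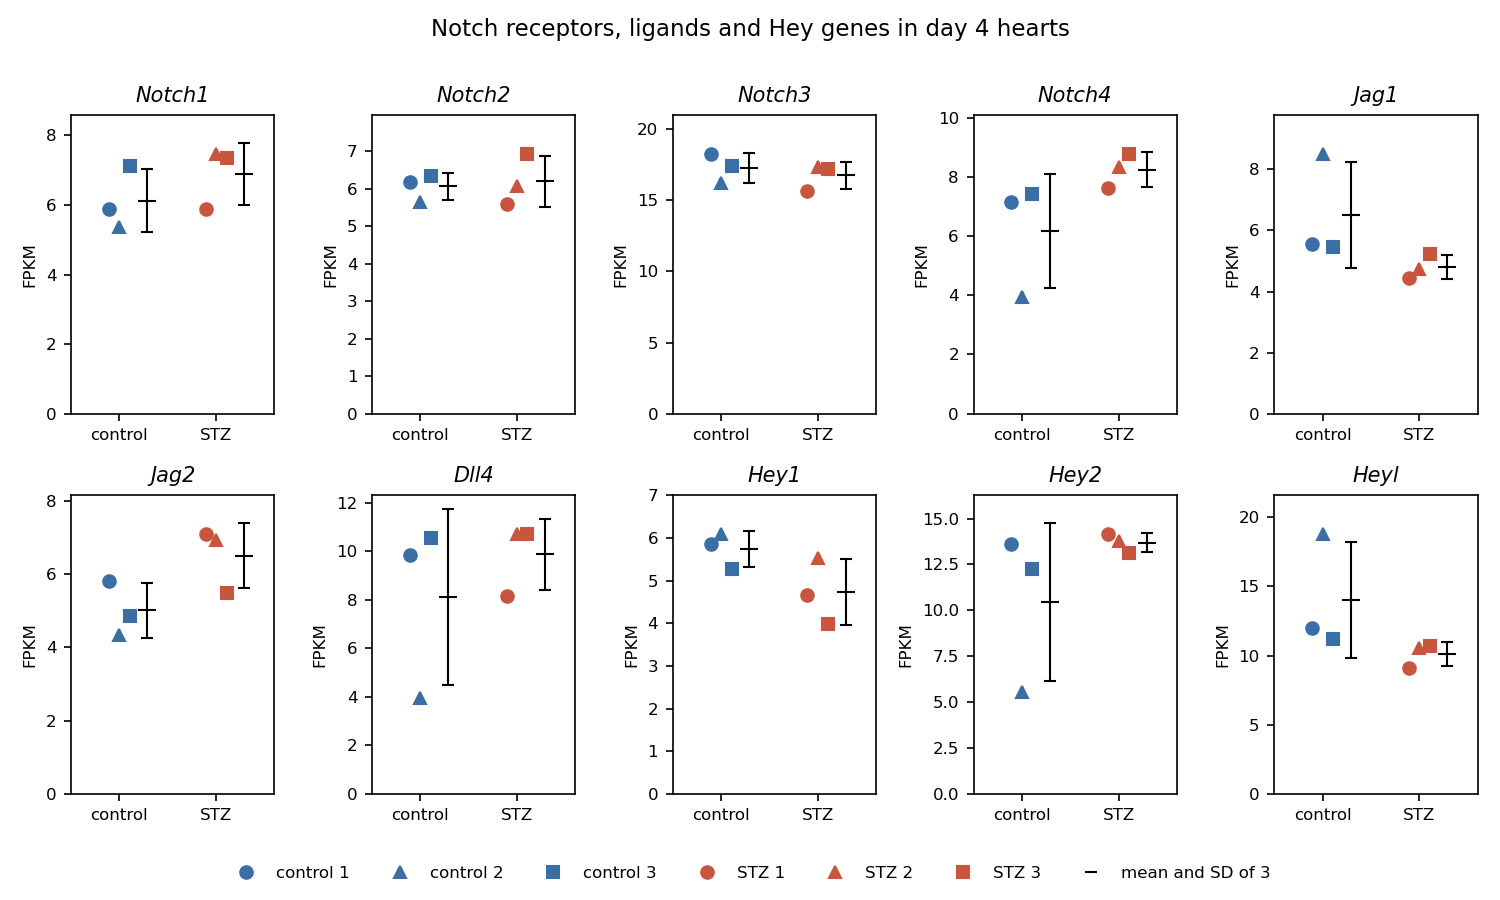
FPKM of the 10 genes in each of the 6 hearts, on linear axes that start at 0, with circles, triangles and squares for samples 1, 2 and 3 and a black bar for the mean and SD of 3. Control 2, the blue triangle, lies apart from the other 5 samples for Notch4, Jag1, Dll4, Hey2 and Heyl and within or near their range for the rest.

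On the FPKM scale, which is per length, Notch3 was the most abundant member. Its mean over the 6 libraries was 17.0 FPKM, and its lowest library was above the highest of Hey2, the next in order. Heyl exceeded Notch3 in control 2. Hey2 (12.07 FPKM) and Heyl (12.05 FPKM) followed, then Dll4 at 8.99, Notch4 at 7.21, Notch1 at 6.51, Notch2 at 6.14, Jag2 at 5.75, Jag1 at 5.66 and Hey1 at 5.24 FPKM. Below Notch3, the ranges of all neighbours in this order overlapped. Dll4 was above Notch4 in 6 of 6 libraries, while Jag1 was above Hey1 in 3 of 6. Each member rested on between 242 and 2784 recovered reads per library.

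Among the receptors, Notch3 (ENSMUSG00000038146, GRCm38 chromosome 17, 32120820 to 32166880, minus strand) was at 18.3, 16.2 and 17.4 FPKM in controls 1 to 3 and at 15.7, 17.3 and 17.2 FPKM in STZ 1 to 3. Its values were close together in all 6 hearts, with a coefficient of variation of 5.50%, the smallest of the 10 members. Notch3 had a log2 difference of -0.04 (SE 0.103, 95% interval -0.29 to 0.20; limma, BH-adjusted p = 0.941), and -0.09 without control 2.

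Notch4 (ENSMUSG00000015468, chromosome 17, 34564268 to 34588503, plus strand), an endothelial receptor, was at 7.14, 3.96 and 7.43 FPKM in the controls and at 7.62, 8.33 and 8.79 FPKM in STZ hearts. All 3 STZ hearts were above all 3 control hearts, by a narrow step except for control 2, which was far below. The log2 difference of Notch4 was 0.40 (SE 0.212, 95% interval -0.10 to 0.91; limma, BH-adjusted p = 0.922). Without control 2 it was 0.16 (interval -0.06 to 0.37), with the groups still apart. Exact permutation, two-sided, of the 6 values gave p = 0.1 for Notch4, Jag1 and Heyl, the smallest that 3 against 3 samples allow, and between 0.2 and 1 for the other members.

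Notch1 (ENSMUSG00000026923, chromosome 2, 26457903 to 26516663, minus strand), the main receptor of endocardium and arterial endothelium, was at 5.89, 5.35 and 7.12 FPKM in the controls and 5.88, 7.48 and 7.35 FPKM in STZ hearts. On the FPKM scale the lowest value was again that of control 2, STZ 1 and control 1 were nearly equal, and the groups overlapped. In recovered reads of Notch1 control 2, at 1630, was above control 1 (1412) and STZ 1 (1488). Notch1 had a log2 difference of 0.15 (SE 0.138, 95% interval -0.18 to 0.48), and 0.07 without control 2. Notch2 (ENSMUSG00000027878, chromosome 3, 98013527 to 98150361, plus strand), found in several cell types including smooth muscle, was at 6.20, 5.66 and 6.35 FPKM in the controls and 5.60, 6.07 and 6.94 FPKM in STZ hearts. The 2 groups of Notch2 values were interleaved. The log2 difference of 0.02 (SE 0.109, 95% interval -0.24 to 0.28) turned to -0.02 without control 2 and to -0.03 when libraries were scaled to recovered reads.

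Of the ligands, Jag1 (ENSMUSG00000027276, chromosome 2, 137081456 to 137116644, minus strand), a ligand of arterial endothelium and smooth muscle whose human counterpart is mutated in Alagille syndrome, was at 5.57, 8.52 and 5.47 FPKM in control hearts. In STZ hearts it was at 4.45, 4.75 and 5.23 FPKM. All STZ values were below all control values, and control 2 was the highest by far. The log2 difference of Jag1 was -0.35 (SE 0.169, 95% interval -0.75 to 0.05; limma, BH-adjusted p = 0.922). It was -0.17 without control 2 (interval -0.39 to 0.06).

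Jag2 (ENSMUSG00000002799, chromosome 12, 112907819 to 112929776, minus strand), the other Jagged ligand, had the opposite sign and the lowest unadjusted p of the 10 members, 0.0560. It was at 5.81, 4.34 and 4.86 FPKM in the controls and 7.09, 6.93 and 5.47 FPKM in STZ hearts, so STZ 3 fell within the control range and the other STZ hearts above it. Jag2 had a log2 difference of 0.32 (SE 0.14, 95% interval -0.01 to 0.65; limma, BH-adjusted p = 0.922). It depended less on control 2 than that of Jag1, being 0.24 without it (interval -0.08 to 0.56).

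Dll4 (ENSMUSG00000027314, chromosome 2, 119325784 to 119335962, plus strand), the ligand of arterial and sprouting capillary endothelium, was at 9.85, 3.97 and 10.5 FPKM in the controls and 8.16, 10.7 and 10.7 FPKM in STZ hearts. Control 2 was at 0.389 times the mean of controls 1 and 3, the furthest below them of any member, and the other 5 hearts lay within 8.16 to 10.7 FPKM. The Dll4 difference on the log2 scale, 0.34 (SE 0.324, 95% interval -0.43 to 1.11), was -0.05 without control 2 (interval -0.37 to 0.27). Its direction thus rested on that library. Overlapping annotated genes, whose reads could be mixed with those of a member since no strand setting is stated, were listed at 2.38 FPKM or less for Jag2, at 0.960 FPKM or less for Dll4 and lower for the 4 receptors, and there were none for Jag1 and the Hey genes.

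The Hey genes differed in sign among themselves. Hey2 (ENSMUSG00000019789, chromosome 10, 30832359 to 30842801, minus strand), a repressor of ventricular compact muscle, was at 13.6, 5.56 and 12.2 FPKM in the controls and 14.2, 13.8 and 13.1 FPKM in STZ hearts. The 5 hearts other than control 2 lay between 12.2 and 14.2 FPKM, with control 1 inside the STZ range. The log2 difference of Hey2 was 0.44 (SE 0.292, 95% interval -0.25 to 1.13; limma, BH-adjusted p = 0.922), the largest of the 10 in size, and 0.08 without control 2 (interval -0.13 to 0.29).

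Heyl (ENSMUSG00000032744, chromosome 4, 123233556 to 123249875, plus strand), a Hey gene of vascular smooth muscle and pericytes, was at 12.0, 18.8 and 11.2 FPKM in the controls and 9.09, 10.5 and 10.7 FPKM in STZ hearts. The groups did not overlap, and control 2 was the highest at 1.62 times the mean of controls 1 and 3. Heyl had a log2 difference of -0.40 (SE 0.196, 95% interval -0.87 to 0.07; limma, BH-adjusted p = 0.922), and -0.18 without control 2 (interval -0.42 to 0.06). Hey1 (ENSMUSG00000040289, chromosome 3, 8663359 to 8667256, minus strand), known from endocardium, arterial endothelium and atrial muscle, was at 5.86, 6.10 and 5.26 FPKM in the controls and 4.67, 5.54 and 3.995 FPKM in STZ hearts. Only STZ 2 reached the control range. The log2 difference of Hey1 was -0.24 (SE 0.128, 95% interval -0.54 to 0.06), and -0.20 without control 2. On the authors' FPKM scale it thus moved little with that library, in which Hey1 was 1.10 times the mean of controls 1 and 3. Recovered reads of Hey1 were 426 in control 2, 322 in control 1 and 301 in control 3. With all libraries the Hey1 difference was -0.30 when scaled to recovered reads and -0.37 with voom on recovered reads.

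**Figure D2:**
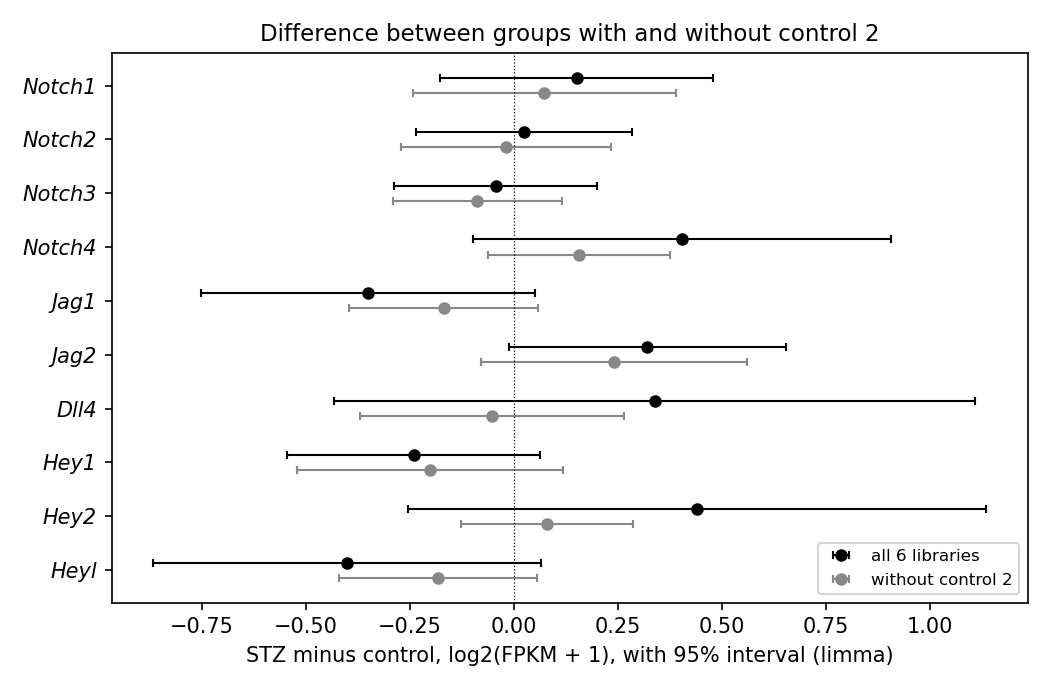
Log2 difference between STZ and control hearts for each member, on the log2(FPKM + 1) scale, with its 95% interval from limma, in black for all 6 libraries and in grey without control 2. Every interval holds 0 in both fits; the estimates for Dll4 and Hey2 moved most, from 0.34 to -0.05 and from 0.44 to 0.08.

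The start of Hey2 is shown because it was the 1 member, of 8 searched, whose promoter holds the core site of RBPJ, the DNA-binding partner of all Notch receptors. RefSeq promoters on GRCm38.p6, from 250 bases before to 50 bases after the transcript start, were at hand for 8 of the 10 members, not for Hey1 and Heyl. The motif searched was TGGGAA on both strands, which 25.6% of 32851 promoters of that length hold, and its longer form GTGGGAA, which contains it and which 6.38% hold. In Hey2 the longer form occurred on both strands, at bases -207 to -201 (chr10:30842984-30842990, reverse strand of the promoter) and at bases -4 to 3 (chr10:30842781-30842787), where 1 is the first transcribed base. The 7 other promoters (Notch1 to Notch4, Jag1, Jag2 and Dll4) held neither form, and none of the 8 held the E-box CACGTG, a site type bound by Hey proteins that 7.15% of promoters hold. A match describes these letters and is no evidence of binding. The minus-strand sequence chr10:30842781-30843033, read 5′ to 3′ with both matches in capitals, ends 3 bases into the transcript.
Hey2: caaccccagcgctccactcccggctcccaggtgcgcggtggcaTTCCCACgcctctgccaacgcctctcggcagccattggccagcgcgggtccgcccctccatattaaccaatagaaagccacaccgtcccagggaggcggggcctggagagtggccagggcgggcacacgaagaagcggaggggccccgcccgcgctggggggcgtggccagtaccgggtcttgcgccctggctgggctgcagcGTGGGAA

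The share of each gene within its family does not depend on the library scale, so the balance between members was compared too. Summed over the 4 receptors the level was 35.7 ± 3.91 FPKM in the controls and 38.1 ± 2.92 FPKM in the STZ group (SD, n = 3 each). Notch3 made up 48.7, 51.9 and 45.4% of it in controls 1 to 3 and 45.1, 44.2 and 42.7% in STZ 1 to 3, all below the controls. Notch4 made up 19.0, 12.7 and 19.4% in the controls and 21.9, 21.2 and 21.8% in STZ hearts, all above the controls. The difference in the Notch4 share was 4.61 percentage points with all libraries and 2.44 without control 2, and in the Notch3 share -4.70 and -3.08. Shares of a family are bound to each other, since a larger share of any gene leaves less for the rest. The Notch3 and Notch4 shares are thus not separate results. The FPKM of Notch3 itself overlapped between the groups with all libraries, at a log2 difference of -0.04.

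The 3 ligands summed to 19.6 ± 2.44 FPKM in the controls and 21.2 ± 1.37 FPKM in STZ hearts. Jag1 made up 26.2, 50.6 and 26.2% of the ligand sum in control and 22.6, 21.2 and 24.4% in STZ hearts. In control 2 alone it exceeded Dll4, which made up 23.6% there and 41.4 to 50.5% elsewhere. The 3 Hey genes summed to 30.2 ± 1.40 FPKM in the controls and 28.5 ± 1.12 FPKM in STZ hearts, a sum that control 2 shared (30.5 FPKM) although its make-up differed. Hey2 made up 43.2, 18.25 and 42.6% of it in control and 50.7, 46.1 and 47.1% in STZ hearts, while Heyl made up 61.7% in control 2 and between 32.6 and 39.0% elsewhere.

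Exact two-sided permutation tests of the 10 shares, which are not independent within a family, gave p = 0.1, the smallest possible, for Notch3, Notch4, Jag1 and Hey2. With shares of reads in place of FPKM the exact permutation p was 0.2 for Notch3, and 0.1 for Heyl beside Notch4, Jag1 and Hey2. After BH adjustment over the 10 FPKM shares the exact permutation p was 0.25 for Notch3, Notch4, Jag1 and Hey2. The other FPKM shares ran from 0.333 to 0.7. Without control 2 the difference was 5.07 points for Hey2 in place of 13.3, and -3.48 for Jag1 in place of -11.6. It was -3.12 for Heyl in place of -10.8. The Dll4 share turned from 6.27 to -2.02 points.

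**Figure D3:**
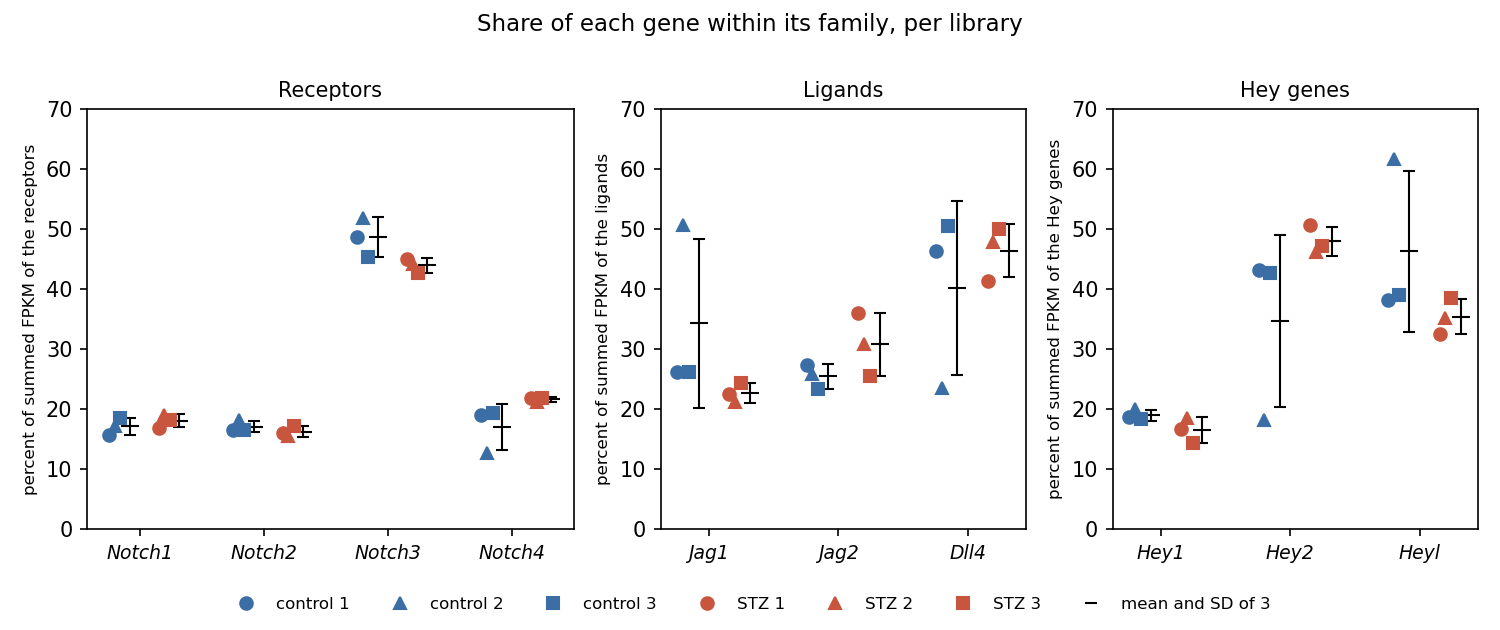
Percent of the summed FPKM of the 4 receptors, the 3 ligands and the 3 Hey genes that each gene made up in each library, with the mean and SD of 3 as black bars. Notch4 and Hey2 take a larger share in all 3 STZ hearts than in any control, Notch3 and Jag1 a smaller one, and control 2 (blue triangle) lies far from controls 1 and 3 for Jag1, Dll4, Hey2 and Heyl.

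Marker levels of the cell types in which these genes are known moved between libraries as well, so each member was set against the mean log2(FPKM + 1) of the markers in its own library, as a description without a test. Hey2 minus the cardiomyocyte level was -5.68, -5.70 and -5.62 in control and -5.58, -5.59 and -5.63 in STZ hearts. Control 2, at 5.56 FPKM of Hey2 the lowest library, was thus close to control 1 on this scale. Against the endothelial level it remained the lowest, at -1.71 where the others lay between -1.38 and -0.97. Dll4 minus the endothelial level was -1.58, -2.11 and -1.58 in control and -1.70, -1.51 and -1.52 in STZ hearts, so control 2 stayed below the rest, while against the cardiomyocyte level its -6.10 lay within the range of the others.

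Notch4 minus the endothelial level was -1.99, -2.12 and -2.03 in control and -1.79, -1.84 and -1.78 in STZ hearts. Its groups did not overlap on this scale, where the group means differed by 0.24 with all libraries and by 0.21 without control 2. The groups overlapped when Notch4 was set against the cardiomyocyte level (difference of means 0.03). Notch3 minus the mural level lay between -0.97 and -0.77 in all 6 hearts. Heyl minus the mural level was -0.57 in control 2 and between -1.60 and -1.44 in the others, and Jag1 minus the mural level -1.63 and between -2.51 and -2.36. For both, all 3 STZ hearts lay below all 3 controls against the mural and the endothelial level. Against the endothelial level the step was narrow, with Heyl at -1.503 in control 3 and -1.522 in STZ 3, and Jag1 at -2.417 and -2.435. The share of all genes without overlap was not computed on these scales, so these readings of Notch4, Heyl and Jag1 have no background. Against the cardiomyocyte level the groups were also apart for Heyl, while Jag1 overlapped. Without control 2 the differences of Heyl and Jag1 from the mural level were -0.12 and -0.11. With all 6 libraries, differences were positive for 10 of 10 cardiomyocyte, 9 of 11 endothelial and 5 of 9 tested mural markers. Without control 2 they were positive for 8, 2 and 3 of these. Markers of other cell types had mostly negative differences with all 6 libraries. No marker of any type passed the threshold. Of the tested macrophage, atrial, and endocardial and valve markers none was positive. Without control 2, 6 of 7, 4 of 5 and 2 of 4 of them were, so their sign rested largely on that library. Lymphatic markers were positive for 3 of 5 with and without control 2, and erythroid markers for 0 of 6. Of 8 fibroblast markers none was positive (median log2 difference -0.41, and -0.20 without control 2). Of 6 epicardial markers 1 was positive, and none without control 2 (medians -0.90 and -0.50). Their summed FPKM was 20.9, 71.6 and 41.1 in controls 1 to 3 and 22.0, 19.8 and 24.4 in STZ 1 to 3. Control 1 thus lay within the STZ range, and without control 2 the lower sum in STZ hearts rested on control 3. An unadjusted limma p under 0.05 was reached by 3 fibroblast and 3 epicardial markers, against 2.59% of all genes. It was also reached by 1 of 9 mural, 1 of 7 macrophage, and 1 of 4 endocardial and valve markers. The groups did not overlap for 4 fibroblast markers and 1 epicardial marker, against 8.54% of all genes. Nor did they for 1 macrophage, 1 lymphatic, and 1 endocardial and valve marker, and for 1 mural marker in each direction. Of the 10 members, Jag1, Heyl, Hey1 and Notch3 had negative differences and the other 6 positive ones. The part of cell make-up in these differences was not tested.

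**Figure D4:**
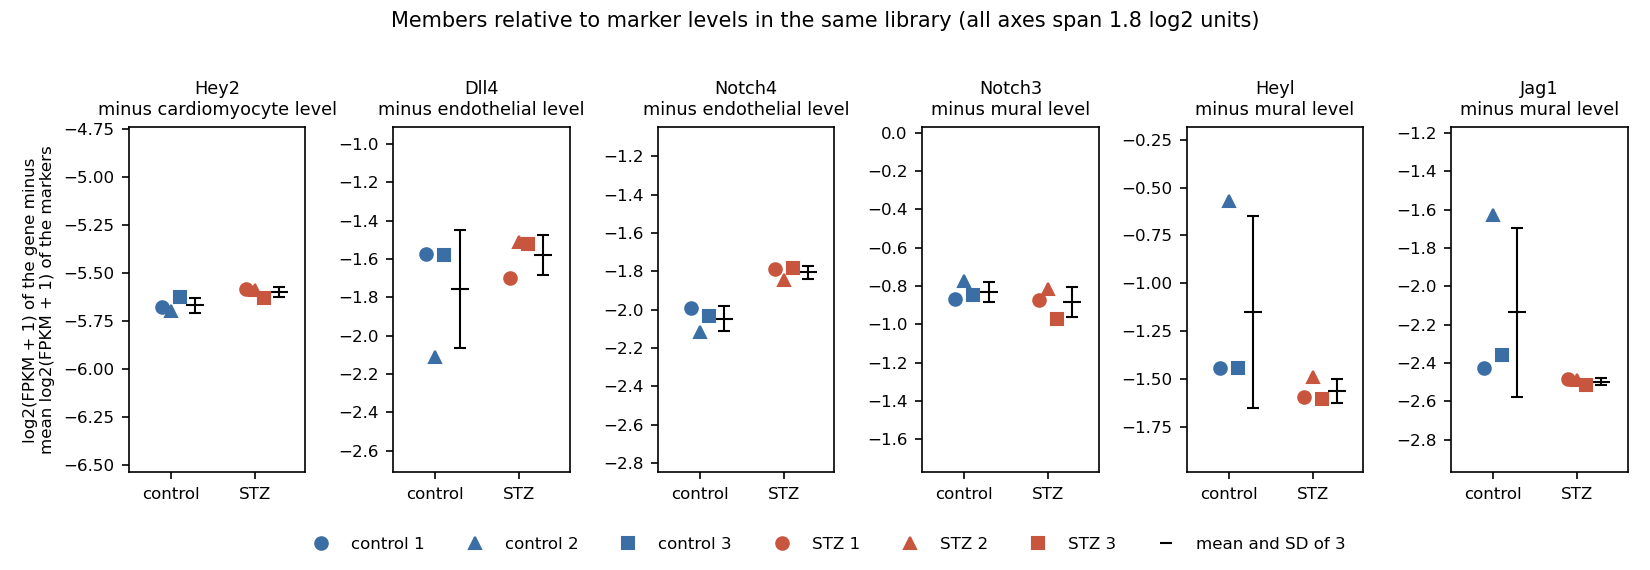
Log2(FPKM + 1) of 6 members minus the mean log2(FPKM + 1) of cell type markers in the same library, all axes with the same span, with the mean and SD of 3 as black bars. The 6 hearts lie close together for Hey2 and Notch3. Notch4 is higher in all 3 STZ hearts than in any control, and Heyl and Jag1 are lower. Control 2 (blue triangle) remains apart for Dll4, Heyl and Jag1.

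The wider pathway was read from 97 other genes in 9 lists, of which 84 passed the filter on low values. None of them passed the test between groups, and 1 of 84 (1.19%) had an unadjusted p under 0.05, against 2.59% of all genes. The groups did not overlap for 9 of them (10.7%), with STZ hearts higher for 2 and lower for 7, against 8.54% of all genes. The log2 difference was positive for 43 and negative for 41, with a median of 0.0008. Without control 2 it was positive for 33 and negative for 51 (median -0.02), none had an unadjusted p under 0.05, and the groups did not overlap for 2 as higher and 13 as lower (17.9%, against 17.7% of all genes).

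Of the other ligands, Dll3 was at 0 in every library, and Dlk2 missed the filter. Dlk1, a non-canonical ligand of fetal tissue, was at 10.1 ± 4.02 FPKM in the controls and 6.73 ± 1.76 FPKM in STZ hearts, and Dll1 at 1.18 ± 0.308 and 1.16 ± 0.211 FPKM (mean ± SD of 3, as below). Their log2 differences were -0.47 and -0.0089, and -0.25 and 0.08 without control 2. Among 17 tested genes that cleave, sugar-modify or traffic receptors and ligands, 8 differences were positive and 9 negative, and 7 were positive without control 2. Lfng, a glycosyltransferase that alters which ligands a receptor answers, was at 5.35 ± 0.607 and 4.26 ± 0.845 FPKM. Pofut1, which adds the fucose that Lfng extends, was at 5.21 ± 0.173 and 4.82 ± 0.247 FPKM, with all STZ values below the controls.

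Of 11 tested negative regulators 6 were positive and 5 negative. Dtx2 of the Deltex ubiquitin ligases was at 2.01 ± 0.182 and 2.37 ± 0.0633 FPKM, and the Numb relative Numbl at 2.02 ± 0.629 and 1.39 ± 0.223 FPKM, neither with overlap between groups. For Numbl the log2 difference of -0.32 was -0.16 without control 2. In the nuclear complex 8 of 9 differences were positive, but 4 of 9 without control 2. The acetyltransferase gene Kat2b was at 27.4, 15.9 and 28.0 FPKM in the controls and 26.1, 28.8 and 28.3 FPKM in STZ hearts, and Crebbp, another acetyltransferase, at 4.06 ± 0.54 and 4.68 ± 0.541 FPKM. Their log2 differences of 0.25 and 0.17 were 0.0003 and 0.08 without control 2. The Groucho corepressor genes Tle1 and Tle3 were at 2.20 ± 0.61 and 1.70 ± 0.109 FPKM and at 3.02 ± 0.859 and 2.41 ± 0.432 FPKM, within a corepressor list of 8 positive and 5 negative differences. Without control 2, 4 of these 13 were positive, and the differences of Tle1 and Tle3 went from -0.23 to -0.08 and from -0.22 to -0.06.

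Among other targets and bHLH partners 2 of 7 tested genes were positive (3 without control 2), and Hes3 and Hes5 were at 0 in every library. Id2 and Id3, which block bHLH dimers, were at 11.9, 24.7 and 11.5 FPKM and at 35.6, 72.1 and 33.9 FPKM in control hearts. In STZ hearts Id2 was between 10.8 and 11.1 FPKM and Id3 between 30.3 and 34.0 FPKM, so control 2 was the highest by far for both. Their log2 differences of -0.43 and -0.47 were -0.09 and -0.13 without it.

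Of 10 arterial endothelial genes, 3 were positive and 7 negative, and without control 2 1 was positive. Gja4, the connexin 37 gene of arterial endothelium, was at 17.4 ± 2.76 and 13.9 ± 0.755 FPKM without overlap (log2 difference -0.29, and -0.17 without control 2). Gja5, connexin 40 of arteries and atria, was at 33.5 FPKM in control 2 and between 4.40 and 8.63 FPKM elsewhere, and its log2 difference of -0.77 was -0.01 without control 2. The venous list had 3 of 6 on each side. The 1 pathway gene with an unadjusted limma p under 0.05 was in it, Nr2f2 (limma, BH-adjusted p = 0.922), which encodes a nuclear receptor of venous and atrial identity. Nr2f2 was at 3.37, 4.89 and 3.20 FPKM in the controls and 2.11, 2.77 and 2.71 FPKM in STZ hearts, a log2 difference of -0.44 (SE 0.163) that was -0.29 without control 2. Nrp2 was at 9.79 ± 3.83 and 13.3 ± 2.61 FPKM, a log2 difference of 0.46 that was 0.14 without control 2.

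Of 9 tested heart genes that neighbour Notch in development, 5 were positive and 4 negative, and 4 were positive without control 2. The transcription factor gene Irx3 was at 16.2, 3.22 and 12.1 FPKM in the controls and 19.2, 14.1 and 15.6 FPKM in STZ hearts, and the growth factor gene Tgfb2 at 5.29, 9.83 and 5.57 against 4.63, 5.04 and 4.95 FPKM. Control 2 was the extreme library for both, and their log2 differences went from 0.81 to 0.20 and from -0.38 to -0.13 without it.

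Over the 6 libraries, the genes whose log2(FPKM + 1) followed each member most closely were searched among 6821 genes with a mean of at least 5 FPKM. For the members that set control 2 apart these were Cand2 and Ate1 with Hey2, Zfp319 and Tnks2 with Dll4, Spry2 and Vps13d with Notch4, Lipa and Loxl1 with Jag1, and Loxl1 and Arpc1b with Heyl (Pearson r between 0.993 and 0.999). For the others they were Zfp871 and Atp13a1 with Notch1, Rnf144a and Zfp266 with Notch2, Rasa1 and Epn2 with Notch3, Cyhr1 and Cstf3 with Jag2, and Thbd and Tm2d2 with Hey1 (r between 0.957 and 0.994). These are the top values of a search over many genes in 6 points that share control 2, and are given as a description. Without control 2 the r of these pairs lay between 0.921 and 0.990. Loxl1, a matrix crosslinking enzyme gene, was the 1 gene named for 2 members, Jag1 and Heyl.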

How the data were processed

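RNA-seq of 6 hearts was deposited by the authors as 1 table of FPKM values for 54532 genes, with gene lengths. The unit was read from the table's name and values, since no header states it. The build is GRCm38 (mm10) per the submitters' processing notes, and the library kit was SMARTER mRNA-seq, per the labels' protocols. The sources used here name no aligner, counting program or strand setting. FPKM times length and a scale per library gave whole reads for 100% of values above 0 within 0.01 reads. Deposited lengths equalled the merged exons of GENCODE M21 for 9 members. For Notch3 they were 8044 and 8089 bases.

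limma 3.58.1 (R 4.3.3) with a mean-variance trend was fitted across all 12431 tested genes on log2(FPKM + 1), with group as the only term. Tests were two-sided, with Benjamini-Hochberg (BH) adjustment over all genes tested and a threshold of 0.05, and the fit was tested on simulated data. The log2(FPKM + 1) scale understates changes of low genes. Exact permutation tests used scipy 1.17.1. Members, lists, marker sets and tests were chosen with earlier results of these data known. The 10 members are named whatever their values. From each pathway list the 2 genes of lowest unadjusted p and any under 0.05 are named, and for each member the 2 genes of highest Pearson r. Alternatives covered pseudocount, filter, scaling, array weights, a replicate block, voom on recovered reads and each library left out.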

Additional observations from a re-analysis of the deposited data

How the results depend on the processing

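No member passed the threshold under any of 15 alternatives, and the BH-adjusted limma p ran from 0.689 to 0.9999. In fits without 1 library an unadjusted limma p under 0.05 was reached by Jag2 without control 1 (as by 4.38% of all genes) and without STZ 3 (2.05%), by Heyl without control 3 (5.60%) and by Hey1 without STZ 2 (1.47%). Of 120 values under the 12 alternatives that can move an estimate, 112 kept their direction, and the 8 reversals were of 3 members. Notch2 turned to -0.035 with scaling to recovered reads, -0.0055 with median of ratios scaling, -0.011 with array weights and -0.047 with voom, and ranged from -0.049 (without STZ 3) to 0.085 (without STZ 1) over fits without 1 library. Notch3 ranged from -0.088 (without control 2) to 0.00016 (without STZ 1), and Dll4 from -0.052 (without control 2) to 0.56 (without control 3). The Dll4 share of the ligands ranged from -2.02 points without control 2 to 11.4 points without control 3. The cause of these turns was not tested. Over all genes the count past the threshold was 3, and 8 with array weights, 1 with voom and 0 with the replicate number as a block (replicate block), against 2 to 5 without 1 library (5 without control 2). The count of members whose groups did not overlap was 3, and between 4 and 5 without 1 library (5 without control 1, STZ 1 or STZ 3, where 20.4, 17.7 and 17.3% of all genes did not overlap, against 8.54% with 6 libraries). The count was 4 without control 2, control 3 or STZ 2, where 17.7, 22.7 and 13.8% of all genes did not overlap. It was also 4 with scaling to recovered reads and with median of ratios scaling, against 7.98 and 8.27% of all genes. Same-numbered libraries did not deviate together (r = 0.021, -0.041 and 0.092), so the block pairs samples by number only. In this balanced design the block cannot move a difference (Hey2 is at 0.44 in both), and its lowest adjusted p among members was 0.935. Leaving out control 2 moved the differences of Notch1, Notch3, Notch4, Dll4, Jag1, Hey2 and Heyl by over 1.5 times, as given above. Hey1 was -0.14 without STZ 3, and Notch1 was 0.25 without control 3 or STZ 1 and 0.10 without STZ 2. Notch3 was near 0 without control 1 (-0.0045), Dll4 was 0.51 and Notch2 0.037 without it, and Notch2 was 0.053 without control 3. Array weights gave 0.059 for Dll4, 0.11 for Hey2, 0.21 for Notch4, -0.20 for Jag1 and Heyl, and -0.072 for Notch3, which was at -0.108 with scaling to recovered reads, -0.12 with voom and -0.069 without STZ 2. Each member had at least 242 reads in every library.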

Other observations

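Rbpj, which encodes the DNA-binding partner of every Notch receptor, was singled out after its values were seen. It was at 2.39, 2.30 and 4.11 FPKM in controls 1 to 3 and 4.37, 4.58 and 2.16 FPKM in STZ 1 to 3. The 3 higher libraries were control 3, STZ 1 and STZ 2, so the difference between them and the rest did not follow the groups. Rbpj-ps3, annotated as a processed pseudogene, was at 11.3, 9.54 and 9.55 FPKM in control and 8.86, 8.30 and 11.1 FPKM in STZ hearts, highest in control 1 and STZ 3, where Rbpj was low, and nearly equal in controls 2 and 3, where Rbpj differed. Both levels are uncertain, since how the counting treated reads that fit a gene and its processed copy is not given in the sources used here. The sum of their recovered reads was 787, 920 and 1160 in control and 1219, 1182 and 809 in STZ hearts, with the same 3 libraries highest.

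Gata4 and Tbx2, transcription factor genes of the heart list, were the other pathway genes without overlap between groups and are named after their values were seen. Gata4 was at 53.3, 41.0 and 57.5 FPKM in control and 60.4, 57.8 and 58.9 FPKM in STZ hearts. Tbx2, which marks chamber boundaries in development, was at 7.24, 6.85 and 6.69 FPKM in control and 5.81, 6.63 and 6.42 FPKM in STZ hearts. Neither passed the test between groups.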
